A study of Arabidopsis thaliana with 4 samples.

Results

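Ethylene is a gaseous plant hormone made from methionine by way of ACC, and ACC synthases carry out the step that usually limits its production. Receptors such as ETR2 and ERS1 hold the kinase CTR1 active in the absence of the gas, and CTR1 then keeps the membrane protein EIN2 silent. When ethylene binds, EIN2 acts on the F-box proteins EBF1 and EBF2, which otherwise send the transcription factors EIN3 and EIL1 to degradation. EIN3 and EIL1 are therefore controlled mainly as proteins, and among the genes that ethylene induces are EBF2, ETR2 and ERS1, which feed back on the pathway. The 10 genes described here cover these steps: the ACC synthase genes ACS6 and ACS2, the F-box genes EBF1 and EBF2, the transcription factor genes EIN3 and EIL1, the signalling genes EIN2 and CTR1, and the receptor genes ETR2 and ERS1. They were chosen by gene locus, and all 10 were found among the 37869 loci of each table.

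Polyadenylated RNA was sequenced from whole Arabidopsis thaliana seedlings aged 14 days, raised in soil under 16 h of light and 8 h of darkness. The mutant tho2-8 was compared with Col-LUC, with 2 libraries of each. The genotype field names Col-LUC for all 4 libraries, so the groups follow the titles. THO2 is a core component of the THO complex, which couples transcription to packaging and export of mRNA. The sources used here do not give the nature of the tho2-8 allele. Nothing in the labels says that replicates came from separate plants, so the spread behind the p-values is one among libraries and may be technical. With all libraries it comes from both genotypes. Where 1 library is left out it comes from the genotype that still has 2, and the lone library of the other is assumed to vary like them.

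Between 17119534 and 17877941 counts were assigned to genes in a library. The level of THO2 was 109 and 100.1 CPM (counts scaled by library size) in the tho2-8 libraries, against 82.1 and 84.6 CPM in the Col-LUC libraries, which does not check the labels without knowledge of the allele. tho2-8 replicate 2 lay farthest along the first principal component, at 58.1, against 16.9 for tho2-8 replicate 1 and -39.4 and -35.6 for the Col-LUC libraries. Markers of shoot and root tissue were all detected. The summed level of the 5 shoot markers was 14399 and 11669 CPM in tho2-8 and 11373 and 16797 CPM in Col-LUC, and that of the 5 floral markers was 14.5 and 9.40 CPM in tho2-8 and 9.92 and 36.9 CPM in Col-LUC. Of the 9 root markers 5 were lower in both tho2-8 libraries than in both Col-LUC libraries, beside 22.8% of all tested genes. The summed level of the 9 root markers was 2006 and 2436 CPM in tho2-8 and 3957 and 2697 CPM in Col-LUC. PYK10 made up most of that sum, and the other 8 markers summed to 38.0 and 19.9 CPM in tho2-8 and 73.7 and 39.0 CPM in Col-LUC. In RNA from whole seedlings, fewer cells of a type and less RNA per cell cannot be told apart.

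Of the 10 ethylene genes, 7 were higher in both tho2-8 libraries than in both Col-LUC libraries, 1 was lower in both and 2 overlapped. Among the 20971 tested genes 25.7% were apart in the higher direction and 22.8% in the lower. The genes that stood higher were ACS6, EBF1, EBF2, EIL1, EIN2, ETR2 and ERS1, the lower one was ACS2, and EIN3 and CTR1 overlapped. By edgeR, with p-values from its quasi-likelihood test adjusted by Benjamini-Hochberg over all tested genes, 0 of the 10 had an adjusted p under 0.05, beside 0.00954% of all tested genes. At an unadjusted p under 0.05 there were 5 of 10, all higher in tho2-8: ACS6, EBF2, ETR2, EBF1 and EIL1. That threshold was met in the higher direction by 8.40% of tested genes and in the lower direction by 7.18%. The 10 genes were chosen with earlier results of these data known, so these counts only describe them. DESeq2 called 2 of the 10, ACS6 and ETR2, both higher, where it called 1.28% of its genes in that direction, and limma-voom called 0 of the 10 and 0.00477% of tested genes. The median log2 fold change of the 10 genes was 0.35, beside 0.01 over all tested genes. Without tho2-8 replicate 2 that median was 0.33, and the log2 fold changes of ACS6 and ETR2 fell to 0.75 and 0.45. Without Col-LUC replicate 1 the median was 0.26. With tho2-8 replicate 1 left out it was 0.40, in a fit that no longer holds the gap between the tho2-8 libraries.

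**Figure D1:**
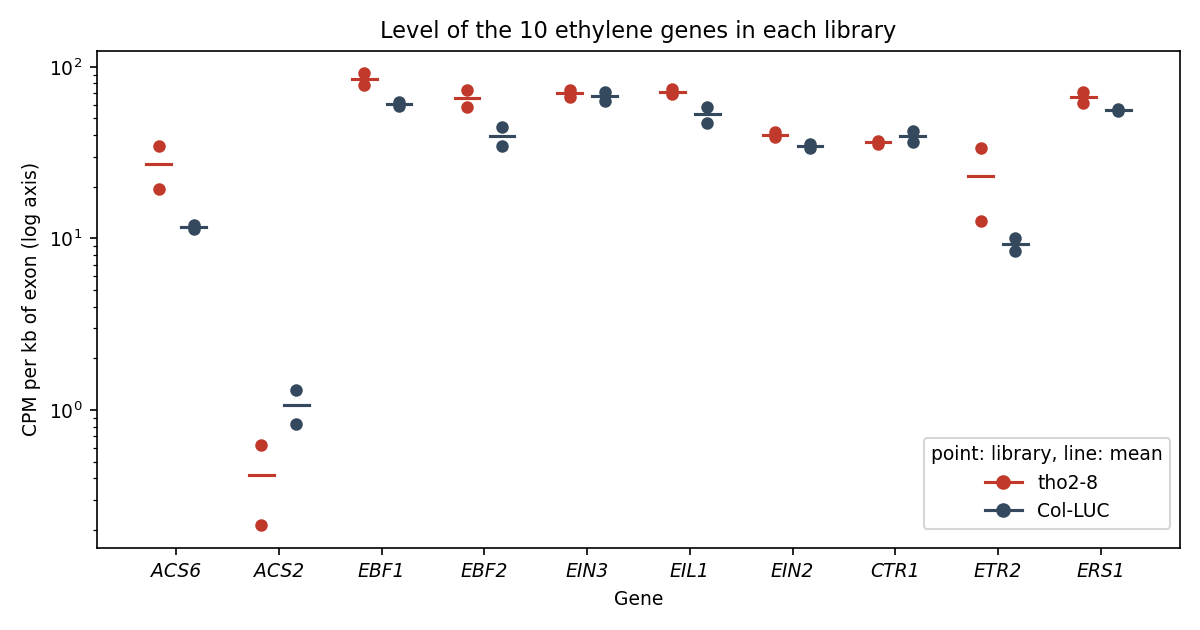
Level of each of the 10 genes in CPM per kilobase of exon, on a log axis, with tho2-8 in red left of Col-LUC in dark blue; points are libraries and lines are means. ACS2, ETR2 and ACS6, in that order, show the widest gaps between the tho2-8 libraries, and ACS2 lies far below the other genes, at 0.745 CPM per kb over the 4 libraries.

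Upstream sequences are shown for the 4 genes with the smallest p among the 10, because EIN3 and EIL1 are known to act on promoters of ethylene-induced genes through short motifs. Each line gives the 250 bases before the annotated gene start in TAIR10.1 (RefSeq), 5′ to 3′ on the strand of the gene. The windows are chr4:6863729-6863978 on the plus strand for ACS6, chr5:8797350-8797599 on the minus strand for EBF2, chr3:8254309-8254558 on the plus strand for ETR2 and chr2:10850798-10851047 on the minus strand for EBF1. Capitals mark the motifs ATGTAT and ATGAAT, forms of the EIN3 core, on either strand, so that they read ATACAT or ATTCAT where they lie on the opposite strand.
ACS6: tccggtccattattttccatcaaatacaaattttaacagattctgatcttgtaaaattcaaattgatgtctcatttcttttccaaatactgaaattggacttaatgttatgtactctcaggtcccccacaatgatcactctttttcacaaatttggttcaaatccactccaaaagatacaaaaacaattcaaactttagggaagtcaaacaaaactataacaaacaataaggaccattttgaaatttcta
EBF2: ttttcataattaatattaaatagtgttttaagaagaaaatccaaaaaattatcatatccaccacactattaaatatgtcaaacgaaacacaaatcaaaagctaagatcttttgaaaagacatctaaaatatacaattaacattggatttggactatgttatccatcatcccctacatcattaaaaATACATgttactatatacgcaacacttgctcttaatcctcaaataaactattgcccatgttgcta
ETR2: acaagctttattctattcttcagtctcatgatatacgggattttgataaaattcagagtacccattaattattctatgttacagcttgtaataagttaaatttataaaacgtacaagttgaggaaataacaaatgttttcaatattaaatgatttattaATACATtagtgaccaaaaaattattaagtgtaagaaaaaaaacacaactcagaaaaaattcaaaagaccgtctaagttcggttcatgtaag
EBF1: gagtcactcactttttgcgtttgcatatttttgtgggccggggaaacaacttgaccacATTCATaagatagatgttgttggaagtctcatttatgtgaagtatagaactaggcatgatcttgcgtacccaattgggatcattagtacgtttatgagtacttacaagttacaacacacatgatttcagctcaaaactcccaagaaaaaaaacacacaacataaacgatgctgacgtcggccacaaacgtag
EBF2 and ETR2 hold ATGTAT on the opposite strand, starting at -65 and -91 from the gene start. EBF1 holds ATGAAT on the opposite strand at -192, and the ACS6 window has neither motif. Only ATGTAT and ATGAAT were searched, so other forms of the core could be present. The search covered 250 bases before and 50 after the start of each gene. It found at least 1 motif in 4 of the 5 genes at an unadjusted p under 0.05 and in 8 of all 10, the exceptions being ACS6 and ACS2. Across 27443 promoters of protein-coding genes 26.1% held ATGTAT, 29.4% held ATGAAT and 46.8% held either, so a match is common.

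The ACC synthase genes differed in direction, with ACS6 higher and ACS2 lower in the tho2-8 libraries. ACS6 (AT4G11280, chr4:6863979-6866116, plus strand, 4 exons) encodes an ACC synthase whose protein is stabilised when the kinases MPK3 and MPK6 phosphorylate it. ACS6 was measured at 36.3 and 64.9 CPM in the tho2-8 libraries, against 21.2 and 22.5 CPM in the Col-LUC libraries. Both tho2-8 libraries were above both Col-LUC libraries, and replicate 2 was 1.78 times replicate 1 in tho2-8. The log2 fold change of ACS6 was 1.21 ± 0.27 (SE, n = 2 per genotype; 95% interval 0.57 to 1.86), with an unadjusted p of 0.00301 and an adjusted p of 0.151 by edgeR. DESeq2 gave ACS6 an adjusted p of 0.00455, and over all alternatives the adjusted p ran from 0.00112, in the fit without tho2-8 replicate 1 whose spread comes from Col-LUC alone, to 0.403. With 1 library left out at a time its log2 fold change lay between 0.75, without tho2-8 replicate 2, and 1.54, without tho2-8 replicate 1.

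ACS2 (AT1G01480, chr1:175706-178406, plus strand, 4 exons) encodes a second ACC synthase that the same kinases can phosphorylate. It was barely expressed: 23 and 8 reads were counted in the tho2-8 libraries, against 30 and 46 in the Col-LUC libraries. The exact 95% Poisson intervals, which cover counting error only, were 14.6 to 34.5 and 3.45 to 15.8 reads in tho2-8 and 20.2 to 42.8 and 33.7 to 61.4 reads in Col-LUC. The intervals of tho2-8 replicate 1 and Col-LUC replicate 1 overlap, so the gap between these 2 libraries is within counting error. As levels these counts were 1.29 and 0.44 CPM in tho2-8, against 1.72 and 2.72 CPM in Col-LUC. The log2 fold change of ACS2 was -1.36 ± 0.62 (SE, n = 2 per genotype; 95% interval -2.83 to 0.12), with an adjusted p of 0.354 by edgeR. Its value was -0.77 without tho2-8 replicate 2 and -2.34 without tho2-8 replicate 1.

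Per kilobase of exon, ACS6 was the most abundant of the 9 ACC synthase mRNAs examined in every library. It made up 74.9% and 81.2% of their summed CPM per kb in the tho2-8 libraries, against 55.9% and 59.3% in the Col-LUC libraries. The sum itself was 25.9 and 42.7 CPM per kb in tho2-8 and 20.2 and 20.3 CPM per kb in Col-LUC. ACS11 came next, with 11.5% and 8.78% in tho2-8 and 14.8% and 15.4% in Col-LUC. The share of ACS2 was 2.40% and 0.498% in tho2-8 and 4.11% and 6.48% in Col-LUC. Within a library ACS6 exceeded ACS2 31.2-fold and 163-fold in tho2-8 and 13.6-fold and 9.15-fold in Col-LUC, and the higher ratio rests on the 8 ACS2 reads of tho2-8 replicate 2.

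**Figure D2:**
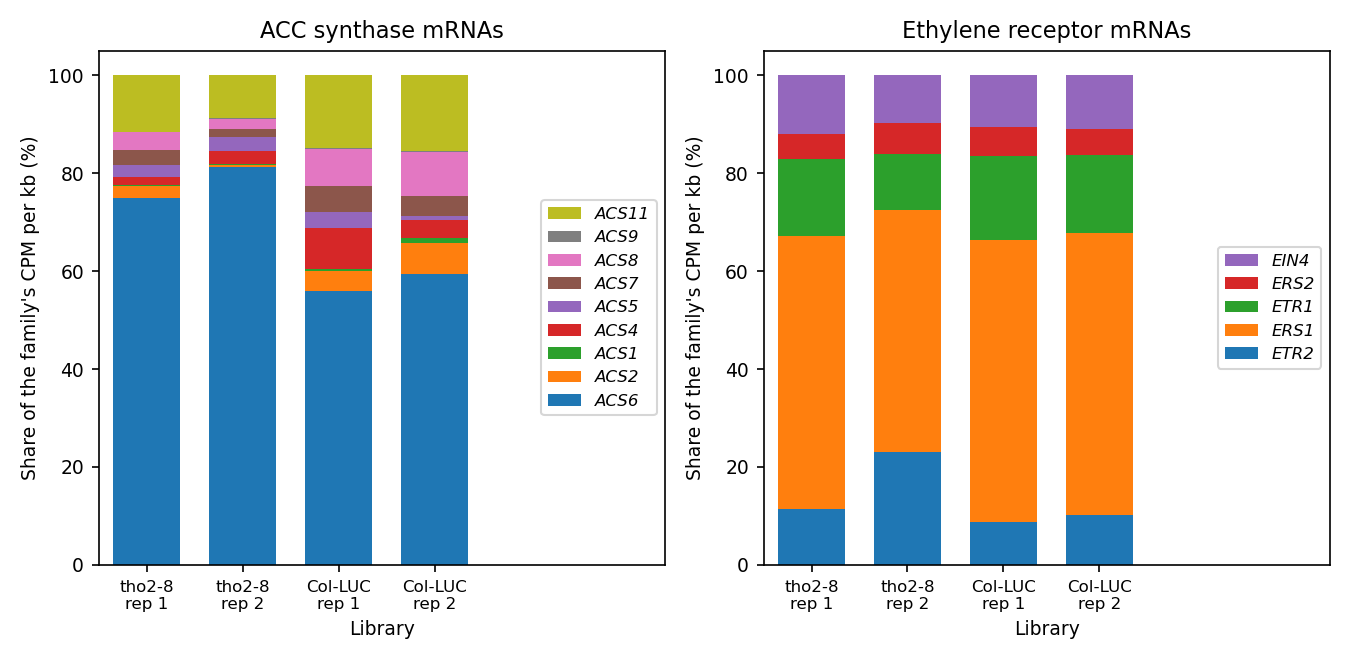
Share of each gene in the summed CPM per kb of its family, in percent, for 9 ACC synthase genes (left) and 5 receptor genes (right), with the tho2-8 libraries left of the Col-LUC libraries. ACS6 takes 74.9% and 81.2% in tho2-8 and 55.9% and 59.3% in Col-LUC, and ETR2 takes 23.0% in tho2-8 replicate 2 and 8.79% to 11.4% in the other libraries.

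Both F-box genes stood higher in tho2-8. EBF2 (AT5G25350, chr5:8794252-8797349, minus strand, 2 exons) is itself induced by EIN3 and acts mainly late in the ethylene response. EBF2 was measured at 170.4 and 216 CPM in tho2-8 seedlings, against 100.5 and 131 CPM in Col-LUC seedlings, with no overlap. Its log2 fold change was 0.74 ± 0.21 (SE, n = 2 per genotype; 95% interval 0.25 to 1.23), with an unadjusted p of 0.00923 and an adjusted p of 0.198 by edgeR. DESeq2 gave EBF2 an adjusted p of 0.051, and over all alternatives the adjusted p ran from 0.051 to 0.532. EBF2 overlaps the exons of AT5G25340 on the opposite strand over 439 bases. AT5G25340 held 5 and 12 reads in the tho2-8 libraries, against 3 and 1 in the Col-LUC libraries, far below the 1754 to 3927 reads of EBF2.

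EBF1 (AT2G25490, chr2:10847375-10850797, minus strand, 2 exons) keeps EIN3 low in plants not exposed to ethylene. EBF1 was measured at 240.2 and 279.7 CPM in tho2-8 and at 181 and 189.6 CPM in Col-LUC seedlings. Its log2 fold change was 0.49 ± 0.17 (SE, n = 2 per genotype; 95% interval 0.08 to 0.90), with an unadjusted p of 0.0267 and an adjusted p of 0.27 by edgeR. Per kilobase, EBF2 reached 0.739 and 0.804 of the EBF1 level in tho2-8 and 0.58 and 0.721 of it in Col-LUC. The lower tho2-8 ratio lay close to the higher Col-LUC ratio, nearer than the 2 Col-LUC libraries were to each other.

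The transcription factor genes differed from each other. EIN3 (AT3G20770, chr3:7260429-7263384, minus strand, 2 exons), the master factor of the ethylene response, was measured at 179.9 and 164 CPM in tho2-8 and at 154 and 175 CPM in Col-LUC seedlings. The libraries of the genotypes overlapped. The log2 fold change of EIN3 was 0.06 ± 0.17 (SE, n = 2 per genotype), with a 95% interval of -0.33 to 0.46, and its sign turned to -0.03 without Col-LUC replicate 1 and to -0.03 without tho2-8 replicate 1. EIL1 (AT2G27050, chr2:11545656-11548293, plus strand, 2 exons), the closest relative of EIN3 and partly redundant with it, was measured at 164 and 175 CPM in tho2-8, against 111 and 138 CPM in Col-LUC. Its log2 fold change was 0.44 ± 0.18 (SE, n = 2 per genotype; 95% interval 0.03 to 0.86), with an unadjusted p of 0.0401 and an adjusted p of 0.296 by edgeR. Within each library the EIN3 level per kilobase was 1.06 and 0.904 times that of EIL1 in tho2-8 and 1.34 and 1.22 times in Col-LUC. Both tho2-8 ratios were below both Col-LUC ratios. The ratio is given as a description and was not tested.

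The signalling genes between receptors and EIN3 showed small differences. EIN2 (AT5G03280, chr5:787428-793404, plus strand, 8 exons) carries the signal from the endoplasmic reticulum to the nucleus. EIN2 was measured at 201 and 188 CPM in tho2-8 and at 163 and 171 CPM in Col-LUC seedlings. The libraries were apart, yet the log2 fold change of 0.22 ± 0.16 (SE, n = 2 per genotype) had a 95% interval of -0.16 to 0.60 and an adjusted p of 0.546 by edgeR. CTR1 (AT5G03730, chr5:974360-979849, minus strand, 16 exons), the kinase that represses the pathway, was measured at 121 and 115 CPM in tho2-8 and at 119 and 137 CPM in Col-LUC seedlings. The genotypes overlapped, and the log2 fold change of CTR1 was -0.12 ± 0.16 (SE, n = 2 per genotype; 95% interval -0.49 to 0.26). The intervals of EIN3, EIN2 and CTR1 all lie within 0.60 of no change on the log2 scale.

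ETR2 had the highest fold change of the 10 genes, and its tho2-8 libraries lay far apart. ETR2 (AT3G23150, chr3:8254559-8257888, plus strand, 3 exons) encodes a receptor of the second subfamily, whose mRNA ethylene is known to induce. It was measured at 40.6 and 108 CPM in the tho2-8 libraries, against 27.2 and 32.7 CPM in the Col-LUC libraries. Replicate 2 was 2.66 times replicate 1 in tho2-8, against a ratio of 1.2 in Col-LUC. The log2 fold change of ETR2 was 1.31 ± 0.41 (SE, n = 2 per genotype; 95% interval 0.34 to 2.29), with an unadjusted p of 0.0156 and an adjusted p of 0.224 by edgeR. DESeq2 gave ETR2 an adjusted p of 0.014, and over all alternatives the adjusted p ran from 0.000373, in the fit without tho2-8 replicate 1 whose spread comes from Col-LUC alone, to 0.573. Without tho2-8 replicate 2 the log2 fold change of ETR2 was 0.45, and without tho2-8 replicate 1 it was 1.83, so its size rests on tho2-8 replicate 2.

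ERS1 (AT2G40940, chr2:17084321-17087326, minus strand, 6 exons) encodes a receptor of the first subfamily. ERS1 was measured at 149.7 and 174 CPM in tho2-8 and at 134 and 138 CPM in Col-LUC seedlings. The libraries did not overlap, but the log2 fold change of 0.25 ± 0.16 (SE, n = 2 per genotype) had a 95% interval of -0.13 to 0.64 and an adjusted p of 0.495 by edgeR. ERS1 shares 56 exonic bases with AT2G40935 on the opposite strand, which held 178 and 192 reads in tho2-8 and 176 and 181 reads in Col-LUC.

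Across the 5 receptor mRNAs the summed level was 110.5 and 145 CPM per kb in tho2-8 and 95.8 and 98.7 CPM per kb in Col-LUC. ERS1 was the most abundant receptor mRNA per kilobase in every library, at 55.8% and 49.4% of the sum in tho2-8 and 57.6% and 57.5% in Col-LUC. ETR2 made up 11.4% and 23.0% in tho2-8 and 8.79% and 10.2% in Col-LUC. Among the receptors outside the 10 genes, EIN4 was measured at 43.8 and 46.8 CPM in tho2-8, against 33.8 and 35.9 CPM in Col-LUC, with a log2 fold change of 0.38 ± 0.14 and an adjusted p of 0.287 by edgeR. ERS2 was measured at 15.1 and 24.1 CPM in tho2-8 and at 14.6 and 13.9 CPM in Col-LUC seedlings. In tho2-8 replicate 2 it was 1.6 times replicate 1. ETR1, the first receptor identified, was measured at 47.9 and 46.5 CPM in tho2-8 and at 45.5 and 43.6 CPM in Col-LUC seedlings, and 38 of its exonic bases lie in AT1G66345.

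**Figure D3:**
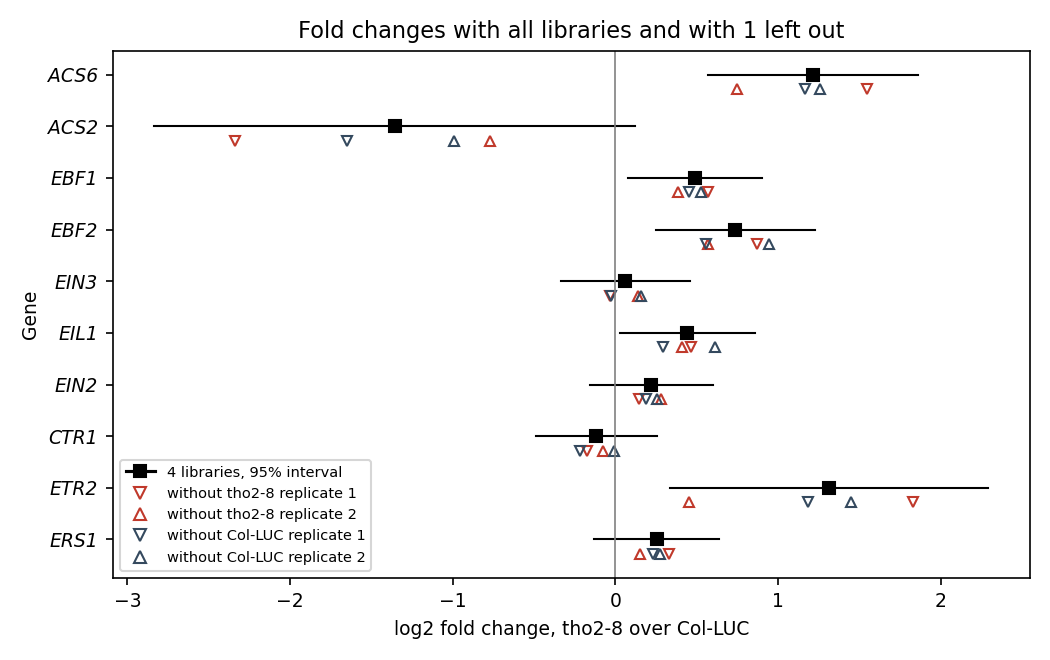
log2 fold change of each gene, tho2-8 over Col-LUC: squares and lines give edgeR's value with its 95% interval from all 4 libraries, and open triangles the value with 1 library left out. ETR2 moves to 0.45 without tho2-8 replicate 2 and to 1.83 without tho2-8 replicate 1, and the triangles of EIN3 fall on both sides of 0.

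The order of the levels per kilobase of exon differed between the genotypes among the 5 highest genes, and EIN2 and CTR1, the next 2, changed places. In tho2-8, EBF1 was highest at a mean of 85.2 CPM per kb, followed by EIL1 at 71.7, EIN3 at 70.2, ERS1 at 66.7 and EBF2 at 65.9, with overlapping libraries between neighbours from EIL1 to EBF2. EIN2 at 40.1, CTR1 at 36.3, ACS6 at 27.0, ETR2 at 23.0 and ACS2 at 0.417 CPM per kb came next, and of these neighbours ACS6 and ETR2 overlapped. In Col-LUC the order was EIN3 at 67.3, EBF1 at 60.7, ERS1 at 56.0, EIL1 at 52.8 and EBF2 at 39.5 CPM per kb. CTR1 at 39.4, EIN2 at 34.5, ACS6 at 11.7, ETR2 at 9.26 and ACS2 at 1.07 CPM per kb followed. Neighbours overlapped in Col-LUC between ERS1 and EIL1 and between EBF2 and CTR1. For 8 of the 10 genes tho2-8 replicate 2 lay farther from the Col-LUC mean than tho2-8 replicate 1 did, on the log2 CPM scale. The share of all tested genes with this pattern was not computed, and tho2-8 replicate 2 also lay farthest along the first principal component.

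Other genes of the pathway were taken from 8 lists with 49 genes, of which 45 were tested. An unadjusted p under 0.05 was found for 8 genes that stood higher in tho2-8 and 2 that stood lower, against 8.40% and 7.18% of all tested genes. By edgeR 0 passed after adjustment over all genes. DESeq2 called 2 higher and 1 lower, beside 270 higher and 290 lower of its 21109 genes. Their median log2 fold change was 0.11. The untested genes were ACS1, ACS9, EIL2 and ESE1.

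Genes of ethylene production showed no shared direction. Of the 5 tested ACC synthase genes beside ACS6 and ACS2, 2 had log2 fold changes above 0 and 3 below, and 0 had an unadjusted p under 0.05. The smallest p belonged to ACS8, at 1.79 and 1.59 CPM in tho2-8 and 2.75 and 3.25 CPM in Col-LUC. ACC oxidases turn ACC into ethylene, and 1 of the 4 tested had an unadjusted p under 0.05. This was ACO1, at 16.7 and 25.6 CPM in tho2-8 and 41.2 and 26.5 CPM in Col-LUC, with a log2 fold change of -0.68 ± 0.28 and an adjusted p of 0.318 by edgeR. ACO1 was lower in both tho2-8 libraries, though 25.6 and 26.5 CPM lie close together. ACO5 was measured at 23.3 and 22.1 CPM in tho2-8, against 44.5 and 20.5 CPM in Col-LUC seedlings, and the genotypes overlapped. Of the 4 genes for S-adenosylmethionine synthetases, which make the substrate of ACC synthase, 0 had an unadjusted p under 0.05, and their median log2 fold change was 0.10. MAT3 was measured at 399 and 408 CPM in tho2-8 and at 575 and 441 CPM in Col-LUC seedlings.

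The 6 further receptor genes and partners include EIN4, ERS2 and ETR1, the copper transporter RAN1 and the receptor regulators RTE1 and RTH. Of these 1, EIN4, had an unadjusted p under 0.05 by edgeR, higher in tho2-8, beside 8.40% of tested genes in that direction. Of the 7 genes listed for turnover, XRN4, named here for its function, encodes an RNA exonuclease. The others act on ACC synthase or EIN2 proteins. The 7 had a median log2 fold change of 0.00, and 0 had an unadjusted p under 0.05 by edgeR. ETP1, an F-box protein that targets EIN2, was measured at 42.1 and 53.1 CPM in tho2-8 and at 34.1 and 38.2 CPM in Col-LUC seedlings, with a log2 fold change of 0.40 ± 0.17. EOL1, a relative of the ACC synthase regulator ETO1, was measured at 105 and 124 CPM in tho2-8 and at 95.6 and 97.7 CPM in Col-LUC seedlings. EIL3, a relative of EIN3 known for its role in sulphur limitation, had a log2 fold change of 0.02 ± 0.17.

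Of the 8 genes for kinases and WRKY33 upstream of ACS6 and ACS2, 3 had an unadjusted p under 0.05 by edgeR, all higher in tho2-8. Over all tested genes 8.40% met that threshold in the higher direction. The libraries of the genotypes were apart in the higher direction for 5 of the 8 and in the lower for 2, beside 25.7% and 22.8% of all tested genes. The MAP kinase kinase gene MKK4 was measured at 42.6 and 36.9 CPM in tho2-8, against 22.5 and 23.7 CPM in Col-LUC, with a log2 fold change of 0.78 ± 0.16 and an adjusted p of 0.131 by edgeR. MKK4 shares 204 exonic bases with AT1G51670 on its strand, which held 73 and 82 reads in tho2-8 and 71 and 24 reads in Col-LUC. MKK9 was measured at 42.8 and 43.5 CPM in tho2-8, against 20.8 and 29.5 CPM in Col-LUC. WRKY33, a transcription factor that binds the ACS2 and ACS6 promoters, was measured at 70.0 and 63.4 CPM in tho2-8 and at 41.2 and 48.9 CPM in Col-LUC seedlings. All 3 were apart between the genotypes.

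Of the 10 tested ethylene-induced targets of EIN3, 5 had an unadjusted p under 0.05 by edgeR, 4 of them higher and 1 lower in tho2-8. Over all tested genes the shares in these directions were 8.40% and 7.18%. The median log2 fold change of the targets was 0.75. RAV2, an AP2/B3 repressor also known as EDF2, was measured at 111 and 134 CPM in tho2-8, against 52.7 and 71.3 CPM in Col-LUC, with a log2 fold change of 0.98 ± 0.20 and an adjusted p of 0.131 by edgeR. Its relative TEM1 was measured at 114 and 111 CPM in tho2-8, against 50.6 and 71.3 CPM in Col-LUC. RAV1, of the same family, was measured at 47.2 and 62.0 CPM in tho2-8 and at 35.5 and 34.3 CPM in Col-LUC seedlings. The remaining gene of the family, EDF3, added after its values were seen, was measured at 9.34 and 9.90 CPM in tho2-8 and at 10.1 and 8.80 CPM in Col-LUC seedlings, so its libraries overlapped. Chosen after their values were seen, ARGOS was measured at 7.66 and 19.4 CPM in tho2-8 and at 6.08 and 3.84 CPM in Col-LUC seedlings, and the basic chitinase gene HCHIB at 136 and 83.7 CPM in tho2-8 and at 286 and 179.6 CPM in Col-LUC seedlings. ERF1, a classical primary target of EIN3, was also chosen after its values were seen. It was measured at 0.839 and 4.84 CPM in tho2-8 and at 0.917 and 1.06 CPM in Col-LUC seedlings, and the genotypes overlapped.

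**Figure D4:**
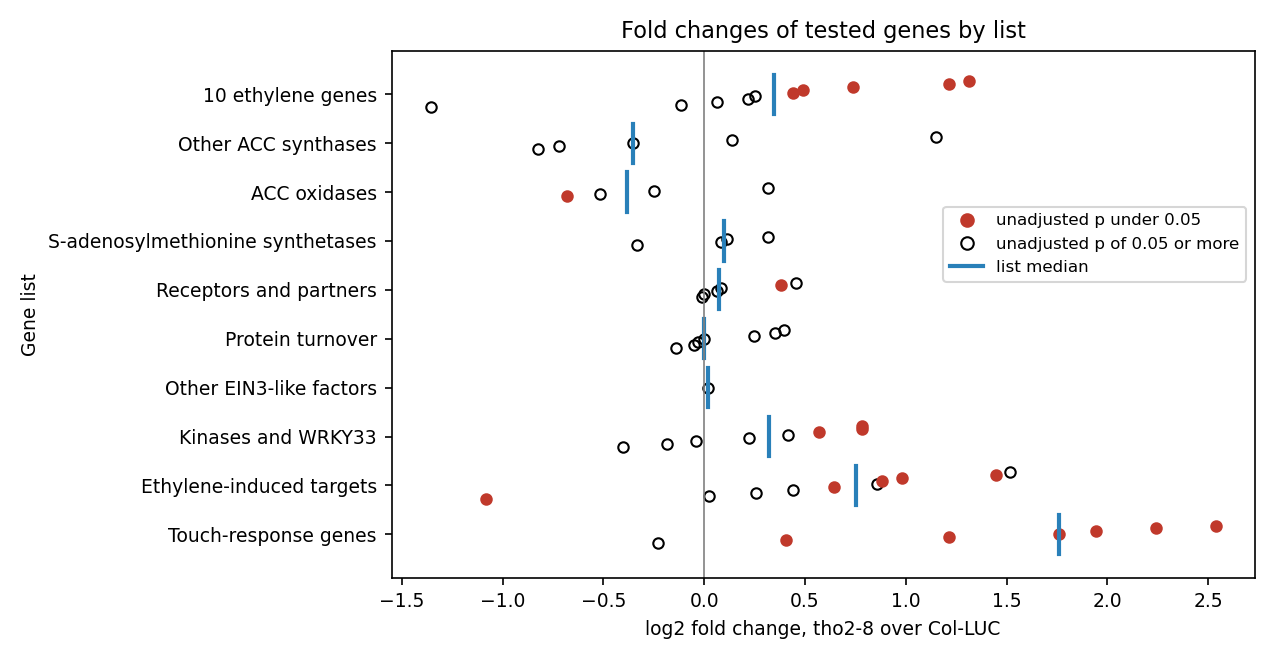
log2 fold change, tho2-8 over Col-LUC, of each tested gene by list; filled red points have an unadjusted p under 0.05 by edgeR and blue lines are list medians. Medians are 0.35 for the 10 ethylene genes, 0.75 for the ethylene-induced targets, 1.76 for the touch-response genes and -0.38 for the ACC oxidases.

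ACS6 mRNA is also known to accumulate after touch and wounding, so genes of the touch response are given beside it. Of the 7 touch-response genes, 6 had an unadjusted p under 0.05, each of them higher in tho2-8. The median log2 fold change of the 7 was 1.76, and DESeq2 called 5, all higher, beside 1.28% of its genes in that direction. Their summed level was 414 and 577 CPM in tho2-8, against 191.2 and 190.5 CPM in Col-LUC. The zinc finger gene RHL41, also called ZAT12, was measured at 36.6 and 53.2 CPM in tho2-8, against 9.23 and 9.74 CPM in Col-LUC. The related gene STZ, or ZAT10, was measured at 119 and 187 CPM in tho2-8, against 21.8 and 30.8 CPM in Col-LUC. XTH22, or TCH4, a xyloglucan endotransglucosylase, was measured at 83.2 and 118 CPM in tho2-8, against 33.3 and 26.2 CPM in Col-LUC. As for ACS6 and ETR2, tho2-8 replicate 2 was above replicate 1 for these 3 genes, by 1.42 to 1.57 times. The part of the touch response and of root content in the levels of the ethylene genes was not tested.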

How the data were processed

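The deposited tables hold estimated counts per gene locus, not normalised, 1 per library. Per the submitters' processing notes, the authors used HISAT2 2.1.0 with TAIR10 after Trimmomatic, counted with featureCounts 1.6.3 and also used DESeq2 1.24.0. The sources used here do not give their settings for strand or shared reads, so genes that overlap others are uncertain. Among those named these include EBF2, ERS1, ETR1, RTH, EIL3, ACO5, MKK4, WRKY33, HCHIB, CAM2 and PYK10. Between 2.06% and 2.15% of loci held fractional estimated counts as deposited, which were rounded; the design had assumed whole counts. Plastid and mitochondrial loci held 0 counts and were left out.

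Genes passing filterByExpr were scaled by TMM and tested with edgeR 4.0.16 (R 4.3.3; glmQLFit, glmQLFTest, genotype the only term), two-sided, with Benjamini-Hochberg adjustment over 20971 genes and a threshold of 0.05. All 10 ethylene genes passed the filter. Standard errors and 95% intervals derive from the F statistic. CPM uses TMM-scaled totals, and 3 counts correspond to 0.168 to 0.175 CPM. Exon lengths, symbols and sequences came from TAIR10.1. The tables hold no coordinates. Alternatives included DESeq2 1.42.0 and limma-voom 3.58.1. The fit was checked on simulated data.

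The 10 genes and the lists were chosen with earlier results of these data known. Of 89 list entries 3 were left out where the annotation lacked that name for the locus. From each list up to 3 genes with the smallest p were named, except 1 that is not reported here, and other genes named are marked. No 2 libraries of a genotype agreed within sampling noise: the mean chi-square of a gene was 22.6 between the tho2-8 libraries and 24.8 between the Col-LUC libraries.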

Additional observations from a re-analysis of the deposited data

How the results depend on the processing

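Of the 12 alternatives fitted, 10 kept the direction of EIN3 and all kept that of the other 9 genes. EIN3 turned to -0.03 without Col-LUC replicate 1 and to -0.034 without tho2-8 replicate 1, with 0.16 as its highest value (without Col-LUC replicate 2). Calls over all genes, 2 with all libraries, were 560 with DESeq2, 1 with limma-voom, 59 with no filter on low counts and 0 to 710 with 1 library left out (0 without either Col-LUC library, 710 without tho2-8 replicate 1, 115 without tho2-8 replicate 2). Of the 10 genes 2 were called with DESeq2 and 0 to 2 with 1 library left out. The genes at an unadjusted p under 0.05 were 1 to 4 with 1 library left out and 3 with the replicate number as a block, against 5. The number over all tested genes moved as well, to 2414 of 20971 with that block, against 3267 with no block. It also varied among the fits with 1 library left out. ACS2, lower in tho2-8, was among the genes only in the fit without tho2-8 replicate 1. The cause of these changes was not tested. The median of the 10 genes ran from 0.26 to 0.40 with 1 library left out.

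Labels share replicate numbers but do not say that these pair the libraries. Deviations of same-numbered libraries correlated at -0.12 across genes. A crossed block, chosen after seeing the data, gave 537 calls over all genes and 1 among the 10. With it 6 of the 10 had an unadjusted p under 0.05 by edgeR, 5 of them higher in tho2-8. That threshold was met by 4284 of 20971 tested genes, against 3267 in the fit with no block. With the replicate block 2 genes were called overall and 0 of the 10. With 8 to 46 reads, depth limits ACS2. Fits with 1 library left out take their spread from the genotype that keeps 2.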
